A study of Mus musculus with 16 samples.

Results

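A retained-intron transcript is an RNA model in which sequence that other transcripts of the gene splice out is kept as exon. The members described here are the transcripts that the deposited mouse gene annotation classes as retained intron, within its Ensembl models, and that belong to protein-coding genes. They numbered 15472 of the 115521 transcripts in the annotation (13.4%), and 18.8% of the 82460 transcripts of coding genes. They lay in 6640 genes. A retained intron was an intron of a protein-coding transcript of the same gene that lay wholly within an exon of a member. The choice used the class names and positions of the gene models and no measured RNA level. None of the 15472 members carried a coding sequence (CDS) in the annotation.

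The series addresses translation of reading frames outside the annotated ones, with 16 libraries of macrophages cultured from the tibia and femur marrow of mice over 7 days in 50 ng/ml M-CSF, a macrophage growth factor. Cells were untreated or given lipopolysaccharide (LPS), a component of bacterial outer membranes. RNA-seq covered 3 untreated and 3 LPS libraries from wild-type C57BL/6 mice, and ribosome profiling covered 2 untreated and 2 LPS libraries of the same genotype and strain, with CHX in their titles. RiboTag covered 2 untreated libraries, 2 at 6 h of LPS and 2 at 24 h from LysM-Cre x RiboTag mice, in which Cre driven by a myeloid promoter switches on a tagged ribosomal protein and the tag is immunoprecipitated with anti-HA antibody. How long LPS was applied is known here by sample for RiboTag alone. The file analysed is the annotation against which such reads can be placed, with 0 columns of values per sample. Library values, their depth and the levels of macrophage markers were therefore not analysed here, and what follows describes gene models.

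Introns are removed from a primary transcript by the spliceosome, which recognises a donor site at the 5′ end of the intron, usually GT in the DNA, and an acceptor site at its 3′ end, usually AG. An intron left in the RNA can hold the transcript in the nucleus until it is spliced, or bring a premature stop codon into the reading frame, so that the exported RNA is a substrate of nonsense-mediated decay. Retention of particular introns is known to regulate SR proteins and Clk kinases, which control splicing themselves, and Irf7, an interferon regulator of macrophages.

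The letters of a few retained introns are shown first, because they carry the marks by which an intron is recognised and any stop codons that its retention adds. No genome sequence was used here, so whole introns could be read only where they fell inside a RefSeq promoter window or microRNA hairpin of assembly GRCm38.p6. That was the case for 11 retained introns, each of which began with GT and ended with AG. The 3 printed are short introns within a CDS, chosen after their values were seen because no CDS intron of a gene with known regulated retention could be read. Letters run 5′ to 3′ on the strand of the gene, and capitals mark the donor and acceptor dinucleotides. Abcg5 encodes a sterol transporter, and its intron 3 of 12 (chr17:84676120-84676204, minus strand, 85 bases) follows codon 135 without splitting a codon. Zmynd10 encodes a factor for assembly of ciliary motors, and the intron is its last, 11 of 11 (chr9:107550866-107550960, plus strand, 95 bases). The gene 2810428I15Rik has the printed intron as its first of 4 (chr8:70506580-70506661, minus strand, 82 bases).
Abcg5 intron 3: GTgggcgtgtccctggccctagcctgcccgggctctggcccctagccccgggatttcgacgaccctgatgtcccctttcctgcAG
Zmynd10 intron 11: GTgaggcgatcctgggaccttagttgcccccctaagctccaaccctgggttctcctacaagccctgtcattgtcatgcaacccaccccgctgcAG
2810428I15Rik intron 1: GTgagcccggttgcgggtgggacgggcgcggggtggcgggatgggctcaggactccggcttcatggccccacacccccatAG

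Read in the frame of the upstream exon, the Abcg5 intron held 1 stop codon, which began at base 43 of the intron. The Zmynd10 intron held 1, which began at base 2. The intron of 2810428I15Rik held 0 stop codons, but its length is not divisible by 3, so it shifts the frame of the exon that follows. Of the 6 readable retained introns within a CDS, 3 held an in-frame stop codon (Abcg5, Zmynd10 and Btbd2) and 0 had a length that keeps the frame. Of the 18 readable introns within a CDS that the members splice out, 15 held one. A codon split by the donor site was not read, and so few introns limit both counts.

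A second set of sequences, also chosen after the values were seen, shows retained introns that are the source of a microRNA. A mirtron is a microRNA precursor whose hairpin ends are made by splicing, so the hairpin exists only when the intron is removed. RefSeq placed 14 microRNA hairpins inside retained introns. Of these, 12 reached an end of the intron, 10 of them at the acceptor and 4 at the donor, and 2 hairpins filled the intron from end to end. Mir1982 fills intron 5 of 5 of Oaz1 (chr10:80828797-80828870, plus strand, 74 bases), a gene that encodes the antizyme that controls polyamine levels. Mir7080 fills intron 12 of 14 of Cpne7 (chr8:123130106-123130172, plus strand, 67 bases), which encodes a calcium-dependent membrane-binding protein. Mir7036 takes up the last 65 of the 151 bases of intron 16 of 19 of Srrt (chr5:137296624-137296774, minus strand), which encodes a cap-associated factor of RNA processing, and 4 members hold that intron. Mir6936 begins at the donor of intron 1 of 9 of Sirt7 (chr11:120624811-120624876, minus strand, 66 bases), a deacetylase gene. RNA letters are given as RefSeq has them, and capitals mark the intron ends that lie within the hairpin.
Mir1982 hairpin: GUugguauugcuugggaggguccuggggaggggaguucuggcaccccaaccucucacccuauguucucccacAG
Mir7080 hairpin: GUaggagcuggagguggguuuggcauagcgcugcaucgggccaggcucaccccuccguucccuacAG
Mir7036 hairpin: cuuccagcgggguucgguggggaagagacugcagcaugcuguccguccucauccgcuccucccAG
Mir6936 hairpin: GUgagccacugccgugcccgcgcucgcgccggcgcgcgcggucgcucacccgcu

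The mature strands show the same splice site letters. In the lines that follow, capitals mark the seed, bases 2 to 8, with which a microRNA pairs to its targets. The 3p strand of Mir1982 ends on the acceptor AG of Oaz1, and the 5p strand of Mir7080 starts on the donor of Cpne7. The seeds of the 4 strands printed differ from each other.
mmu-miR-1982-3p: uCUCACCCuauguucucccacag
mmu-miR-7080-5p: gUAGGAGCuggagguggguuugg
mmu-miR-7036a-3p: cCGUCCUCauccgcuccucccag
mmu-miR-6936-5p: gUGAGCCAcugccgugcccgc

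The introns that members splice out held 82 RefSeq hairpins, of which 41 reached an intron end and 4 reached both. That is 50% (95% Wilson interval 39.4 to 60.6%), against 85.7% (60.1 to 96.0%) of the 14 hairpins in retained introns, and the 2 intervals overlap at their edges. MicroRNA genes as such lay in 0.324% of retained and 0.323% of spliced introns. Retained introns are shorter, and from 150 to under 500 bases the shares were 0.315% (0.152 to 0.648%) and 0.178% (0.0996 to 0.319%), with overlapping intervals.

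The name of the class was checked against the models, and in the strict sense it describes a minority of them. Of the 15472 members, 4650 held a whole intron of a coding transcript of their gene, which is 30.1% (29.3 to 30.8%). A further 266 (1.72%) held no such intron but one of a transcript of another class, such as processed or nonsense-mediated decay transcripts. The largest group, 10516 members (68.0%), reached part of the way into an intron, and 170 of these did so without having an end there. The remaining 40 did neither. These members are therefore called retained-intron transcripts by their annotated class, and "holding" is kept for the 4650 with a whole coding intron.

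The ends of the models account for most of the rest. The 3′ end lay in an intron in 52.1% of the members (51.3 to 52.9%), and the 5′ end in 41.4% (40.6 to 42.2%). A whole intron, an end within an intron, or both were found in 98.5%. Among the 10516 members that reached into an intron only in part, 48.2% had just the 3′ end there, 36.5% just the 5′ end and 13.6% both ends. Among the 4650 that held a whole intron, 55.2% had neither end in an intron. An intronic 3′ end lay a median of 379 bases past the donor (quartiles 176 and 963, n = 7873 ends). An intronic 5′ end lay a median of 194 bases before the acceptor (quartiles 80 and 378, n = 5961).

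**Figure D1:**
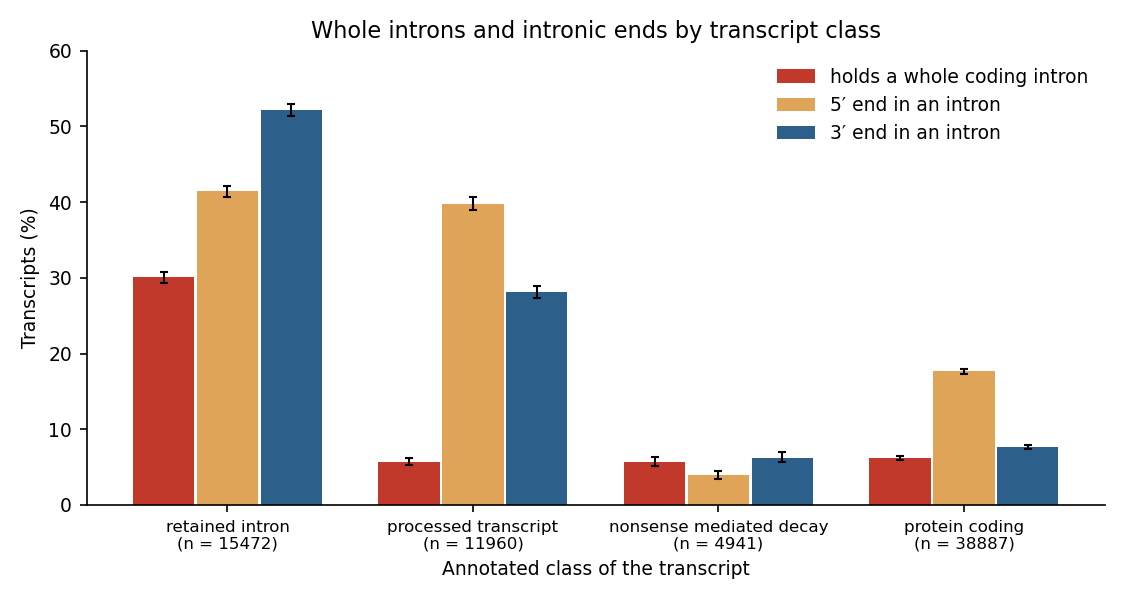
Share of transcripts (vertical axis, %) that hold a whole intron of a coding transcript of their gene, that begin in an intron and that end in one, for 4 annotated classes of transcripts of coding genes (horizontal axis, with n). Error bars are Wilson 95% intervals; 30.1% of the retained-intron class hold a whole intron, against 5.71 to 6.21% in the other 3 classes.

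Against the other transcript classes of coding genes, the plot of whole introns and intronic ends shows where the members differ. A whole coding intron lay in 5.72% (5.32 to 6.15%) of processed transcripts, which are non-coding models of coding genes, in 5.71% (5.09 to 6.39%) of transcripts classed as nonsense-mediated decay, and in 6.21% (5.98 to 6.46%) of protein-coding transcripts of genes with several. An intronic 5′ end was about as frequent in processed transcripts, at 39.8%, as in the members. An intronic 3′ end was found in 28.1% of processed transcripts, 7.64% of protein-coding transcripts and 6.25% of decay transcripts, each below the members' 52.1%. The annotated starts of the members rarely matched a known gene start when they lay in an intron: 1.34% of the 6292 such starts that could be compared had a RefSeq gene start within 50 bases, against 32.3% of 8231 starts in exons. Processed transcripts were split in the same direction, at 4.03% of 4669 and 29.4% of 6006. A start counted as intronic lies in no exon of a coding transcript of the gene, which by itself limits such matches. Gene models are not replicates of a condition, so shares carry intervals of counting error only and no p-value.

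Members were short relative to their genes. The median member had 3 exons and 844 bases (quartiles 617 and 2276). The reference transcript of a gene is the coding transcript with the longest CDS. Of its span on the genome, introns included, members covered a median of 21.04%. The reference transcripts, counted once for each member, had a median of 13 exons and 3173 bases. A single exon made up 1044 members, of which 286 held a whole intron. The transcript support level, which grades how well RNA evidence supports a model from 1 (best) to 5, was 1 for 29.3% of the members and 2 for 32.5%.

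Members were unevenly spread over genes. Of the 19569 coding genes with an intron, 33.9% had at least 1 member and 14.5% had a whole retained intron. Exactly 1 member was found in 2842 of the 6640 genes (42.8%), 2 to 4 in 3086 (46.5%), 5 to 9 in 676 (10.2%) and 10 or more in 36. The share rose with the number of introns that the reference transcript has, from 2.24% of genes with 1 intron to 35.3% with 5 to 9 and 56.7% with 20 or more. It also rose with the number of other transcripts annotated for the gene, from 9.64% with 1 other transcript to 70.1% with 10 or more. Both moved together with the share, and their part in it was not tested.

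The genes with the most members were Cspp1, with 16, and Eif4a2, with 15. Cspp1 encodes a centrosome and cilium protein, and just 1 of its 16 members held a whole intron, while 5 had their 3′ end in intron 4, which is 5509 bases long. Eif4a2 encodes an RNA helicase of translation initiation, and 10 of its 15 members held a whole intron, over 6 distinct introns. Its intron 5, of 80 bases, was held by 4 members. The next were 4932438A13Rik with 14 and Rbm5, a splicing factor gene, with 13. Ank3, Birc6, Camk2d, Dopey1, Phip and U2af1l4 had 12 each. Camk2d, a calcium-dependent kinase gene with 20 introns, had 0 members holding a whole intron, and no intron took in an end of more than 2 of its members. U2af1l4 lies at the other extreme: all 12 members held a whole intron of this paralog of the splice-acceptor factor U2af1.

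The distinct introns held by the members numbered 6169, in 2843 genes, and 5541 when overlapping forms of an intron were counted once. The median retained intron was 265 bases long (quartiles 117 and 679). Introns that members splice out and that no member holds had a median of 1162 bases (363 and 2989, n = 35296), and introns covered only in part had a median of 2683 bases. Under 300 bases lay 53.8% (52.6 to 55.1%) of the retained and 22.1% (21.6 to 22.5%) of the spliced introns. Over 2000 bases lay 4.78% and 35.05%. An exon must be longer than an intron to hold it, so the length of the models bounds what can be called retained.

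**Figure D2:**
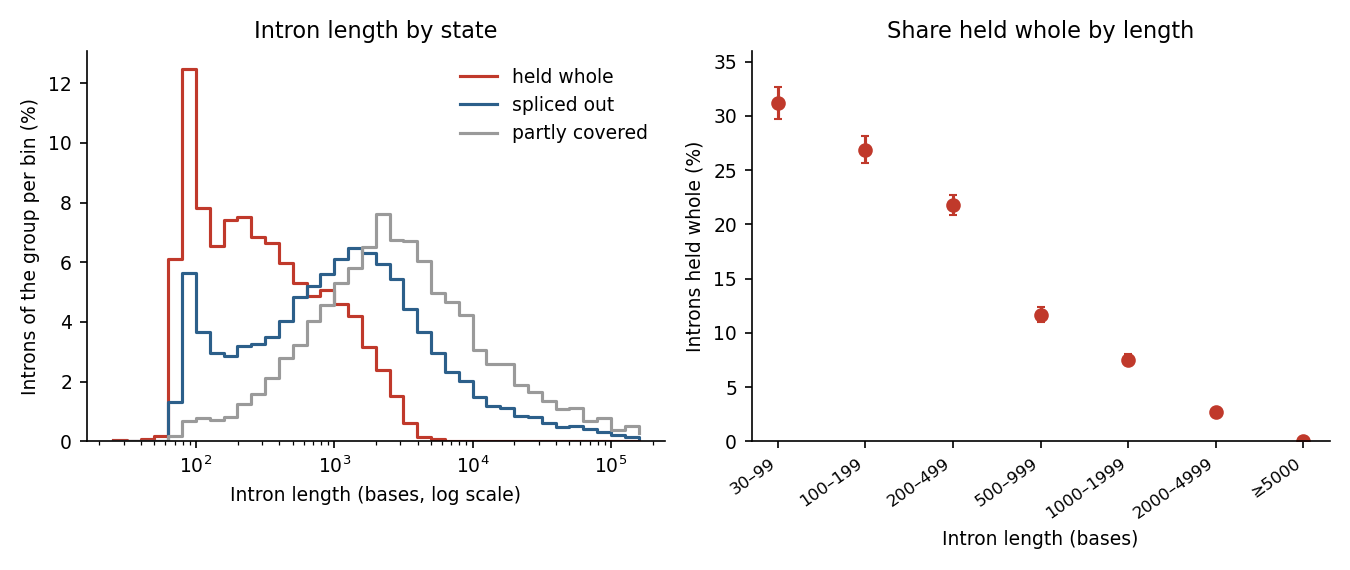
Left, length of introns held whole, spliced out or partly covered by retained-intron transcripts (horizontal axis in bases, log scale; vertical axis, % of each group per bin). Right, share of all introns met by a member that were held whole (vertical axis, %) by intron length (horizontal axis, bases) with Wilson 95% intervals; the share falls from 31.2% at 30 to 99 bases to 0.0702% at 5000 bases or more.

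By length, the share of introns met by a member that were held whole fell step by step. It was 31.2% at 30 to 99 bases, 26.9% from 100 to under 200, 21.8% to under 500, 11.7% to under 1000, 7.504% to under 2000 and 2.66% to under 5000 bases. Over the same bins the share covered only in part rose from 3.11% to 34.0%. Below 30 bases there were 25 introns, of which 24 were held; gaps so small are below the size that the spliceosome is known to remove.

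Within single transcripts the length difference depended on how it was measured. In 3051 of 4320 members with both kinds of intron (70.6%, 69.2 to 71.96%), the median retained intron was shorter than the median spliced intron, with a median ratio of 0.595. When the shortest retained intron was set against the shortest spliced one, it was shorter in 47.5%. When spliced introns longer than the exon that holds the retained intron were left out, a comparison added after the values were seen, the retained intron was shorter in 45.2% of 3584 members (43.6 to 46.8%). This limit takes out long spliced introns alone, so it could only lower the share. Members whose spliced introns were all longer than that exon dropped out, and in each of them the retained intron was the shorter. The 45.2% therefore cannot show whether the direction held among introns that could have been held.

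Most retained introns rested on 1 model. A single member held 86.0% of them, 2 members held 689 (11.2%) and 3 or more held 175 (2.84%). Another member of the gene spliced out the same intron in 39.3% of cases. No other transcript class held 93.9% of them, while an exon of a protein-coding transcript also covered 4.65%. The largest number of holders was 6, reached by intron 1 of Ager (195 bases), the gene of the receptor for advanced glycation end products, by intron 9 of Arhgap4 (94 bases), and by intron 1 of U2af1l4 (132 bases) in 3 overlapping forms.

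The extremes of length were as follows. Intron 1 of Ube2d3, a ubiquitin-conjugating enzyme gene, was the longest, at 15387 bases (chr3:135439799-135455185), and intron 22 of Hace1, a ubiquitin ligase gene, followed at 8856 bases. The next were 2 overlapping introns of Pcdhgc5, at 5322 and 5308 bases, and intron 3 of Sorbs2, at 5284 bases. The 5 shortest over 30 bases lay in Cnot11 and Dip2a (40 bases each), Gnai2 (47), Madd (48) and Ubl3 (50). Coding transcripts also held the introns of Cnot11, Gnai2, Madd and Ubl3 within an exon, and that of Dip2a was intron 24 of 37 of its reference transcript.

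Some members read through nearly the whole gene. A transcript of Dcaf11, a ubiquitin-ligase adaptor gene, held 19 distinct introns, 11 of them not overlapping, in 4 exons and 7271 bases. The single-exon member of Slc25a22, a mitochondrial glutamate carrier gene, held 18 (10 not overlapping) in 5590 bases, and a member of Msto1 held 12 (11 not overlapping). By gene, Dcaf11 had 19 distinct retained introns, Slc25a22 18, and Hdac5 and Rtel1 13 each. Dnase1, Gyltl1b, Msto1 and Stab1 had 12, and Mroh1 and Nop56 had 11. Over all 4650 holding members, 68.5% held just 1 intron and 5.74% held 4 or more.

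Position along the gene was read on the introns of reference transcripts that members held whole or spliced out. Introns covered only in part were left out here, unlike in the shares by length. Held were 10.4% (9.42 to 11.5%) of first introns, 13.7% (13.3 to 14.1%) of internal introns and 12.7% (11.6 to 14.03%) of last introns. First introns of this set had a median length of 2596 bases, internal ones 889 and last ones 645. Among introns under 500 bases, a limit added after the values were seen, the order turned to 31.7% (28.3 to 35.2%) for first, 25.95% (25.2 to 26.7%) for internal and 20.4% (18.2 to 22.7%) for last introns. The lower share of first introns was thus not seen among short introns.

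Nearly all retained reference introns split a coding sequence. Of the 5213, 5080 lay in the CDS (97.4%), 111 in the 5′ untranslated region (UTR) and 22 in the 3′ UTR. Spliced introns were in the CDS in 96.0% of cases. The phase, which counts the bases of a codon left before the intron, was 0, 1 and 2 in 43.8%, 32.0% and 24.2% of the retained CDS introns, against 47.1%, 30.2% and 22.7% of the spliced ones. A length divisible by 3 was found in 32.6% (31.3 to 33.9%) of the retained CDS introns and 33.5% (32.9 to 34.0%) of the spliced ones, with overlapping intervals. A retained CDS intron lay after a median of 50.9% of the coding sequence, and a spliced one after 44.3%.

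Genes with known regulated retention had members in 6 of the 9 that have an intron, beside 45.4% of coding genes in the same classes of intron number and 33.9% of all. With lists so short the interval is wide, from 35.4 to 87.9%. Robo3, an axon guidance receptor gene whose forms differ by a retained intron, had 4 members, and 2 of them held intron 26 of 27 (405 bases), after 1324 of its 1402 codons. Ogt, which encodes the enzyme that adds O-GlcNAc to proteins, had 3 members, all of which ended inside intron 4 (3415 bases), at 669, 686 and 2378 bases past its donor. Lmnb1, a nuclear lamina gene, had 1 member, which ended 119 bases into intron 5 (6483 bases). Nxf1, an mRNA export receptor gene, had 3, and 1 of them held intron 12 of 20 in forms of 79 and 133 bases. Mat2a, Mgea5 and Apoe had 0 members. The member of Ogt with the farthest end also held an intron of 107 bases, which is no intron of the reference transcript and lies within an exon of a coding transcript. No reference intron of Ogt or Lmnb1 was held whole.

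Irf7, the interferon regulator on this list, had 5 members, and 4 of them held a whole intron. Intron 3 of 9 (85 bases, chr7:141265292-141265376, minus strand) was held by 2 members and spliced out by 2 others. It lies after codon 59 of 457, in phase 0. Intron 5 (69 bases) and intron 7 (174 bases) were held by 1 member each, and a longer form of intron 5, of 165 bases, by 1. The member with the widest span covered 98.1% of the genomic span of the reference transcript in 9 exons. The 5th member ended 275 bases into intron 4.

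The kinases that phosphorylate SR proteins had members in 6 of 7 genes, and all 6 had at least 1 whole retained intron. The interval is 48.7 to 97.4% for both counts. Of coding genes in the same intron-number classes, 49.8% had members and 23.2% a whole retained intron. The related genes Clk1, Clk2 and Clk4 retained the same pair of introns. Intron 3 followed codon 129 of 483 in Clk1, 133 of 500 in Clk2 and 128 of 481 in Clk4, in phase 0 in each. Intron 4 followed codons 159, 162 and 158, in phase 1 in each. Their lengths differed between the genes, with 871, 691 and 1055 bases for intron 3 and 387, 346 and 391 for intron 4.

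**Figure D3:**
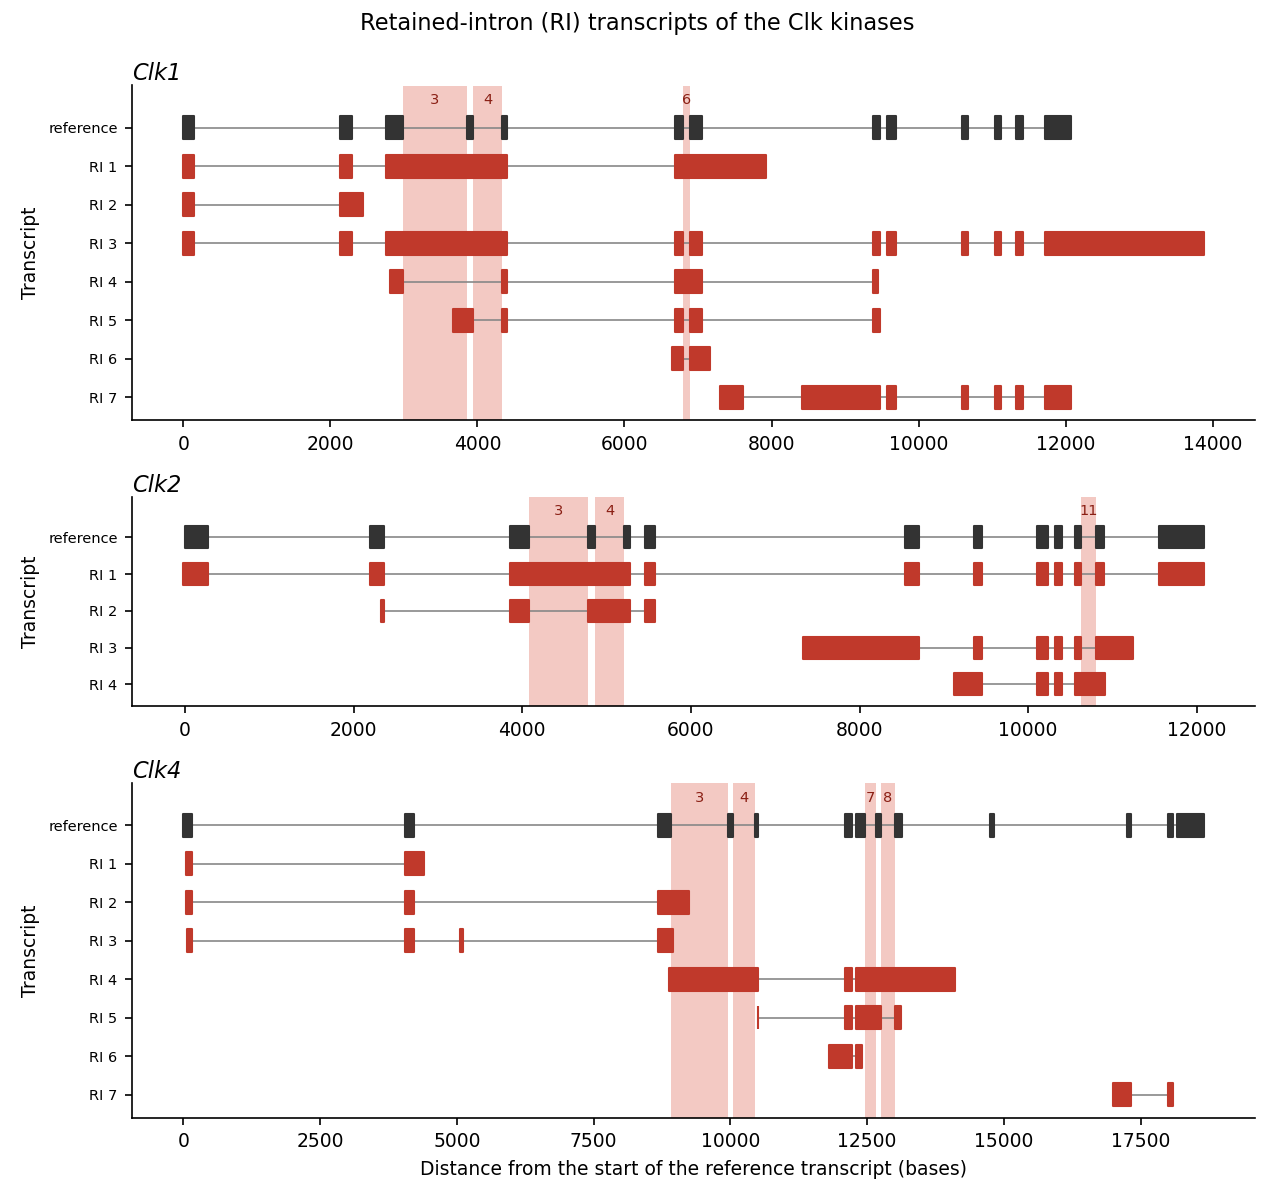
Exons (boxes) of the reference transcript (black) and of each retained-intron (RI) transcript (red) of Clk1, Clk2 and Clk4, by distance in bases from the start of the reference transcript. Shaded bands with numbers are retained introns; in each gene at least 1 RI transcript joins the exons on both sides of introns 3 and 4.

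In the maps of the Clk genes, 2 of the 7 members of Clk1, 1 of the 4 of Clk2 and 1 of the 7 of Clk4 held introns 3 and 4 together with exon 4 between them. That exon is 91 bases long in Clk1 and Clk4 and 88 in Clk2, so its skipping shifts the frame, and it is known as a skipped exon of Clk1. Transcripts that skipped it numbered 3 in Clk1, 1 in Clk2 and 3 in Clk4, of which 2, 1 and 2 were classed as nonsense-mediated decay. The members of Clk1 and Clk2 with both introns included nearly full-length ones, with 11 exons each. Clk1 also had intron 6 (87 bases) held by 2 members, and Clk4 had introns 7 (191 bases, 2 members) and 8 (253 bases). Of the Srpk kinases, Srpk3 had 3 members, all holding, with 5 distinct introns, Srpk1 had 4 with 1 holding, and Srpk2 had 3 with 1 holding.

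SR proteins, the splicing activators that those kinases act on, had members in 8 of 13 genes (61.5%, 35.5 to 82.3%), beside 31.2% in the same intron-number classes. In Srsf5 all 3 members held intron 5 (1229 bases, chr12:80947866-80949094, plus strand), which follows codon 122 of 270. Srsf3 had 1 of 3 members holding, with introns 3 (2150 bases) and 4 (393 bases). In Srsf2 the member held the intron of the 3′ UTR, of 1059 bases, and in Srsf6 intron 2, of 1283 bases. Srsf1 had 1 of 2 members holding intron 4 (378 bases), which a coding transcript also holds. Srsf11 had the most members, 11, and 0 that held a whole coding intron. Of those 11, 6 had an end in intron 3 (3774 bases), 3 with their 3′ end and 3 with their 5′ end. Srsf4 and Tra2b had 1 and 2 members, with 0 holding.

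Such a pile-up of ends in 1 intron can be set beside all genes. In the 712 genes with at least 5 members, the intron with the most ends took in a median of 33.3% of the gene's members. In 52 of these genes (7.30%) it took in more than 50% of them, as in Srsf11. The highest number was 7 members, in Cacnb2, a calcium channel subunit gene.

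Core spliceosome genes had members in 21 of 34 (61.8%, 45.0 to 76.1%), beside 41.0% of genes with like intron numbers. U2af1l4 led with 12, and its intron 5 (172 bases) was held by 5 members and spliced by 2. Snrnp200, a spliceosomal helicase gene, had 3 members, all holding, and Prpf19 had 5, with 3 holding. The hnRNP genes had members in 13 of 23 (56.5%), beside 43.9% at the same intron number but 55.7% at the same numbers of introns and of other transcripts. Hnrnpk had 9 members, 3 of them holding, and Ptbp1 had 5, with 3 holding. Genes of nonsense-mediated decay and the exon junction complex had members in 7 of 15 (46.7%), beside 42.9% at the same intron number and 48.1% at the same numbers of introns and other transcripts. Whole introns were held in 2 of the 15, Smg9 and Rbm8a, which is 13.3% beside 19.2% of genes with like intron numbers.

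**Figure D4:**
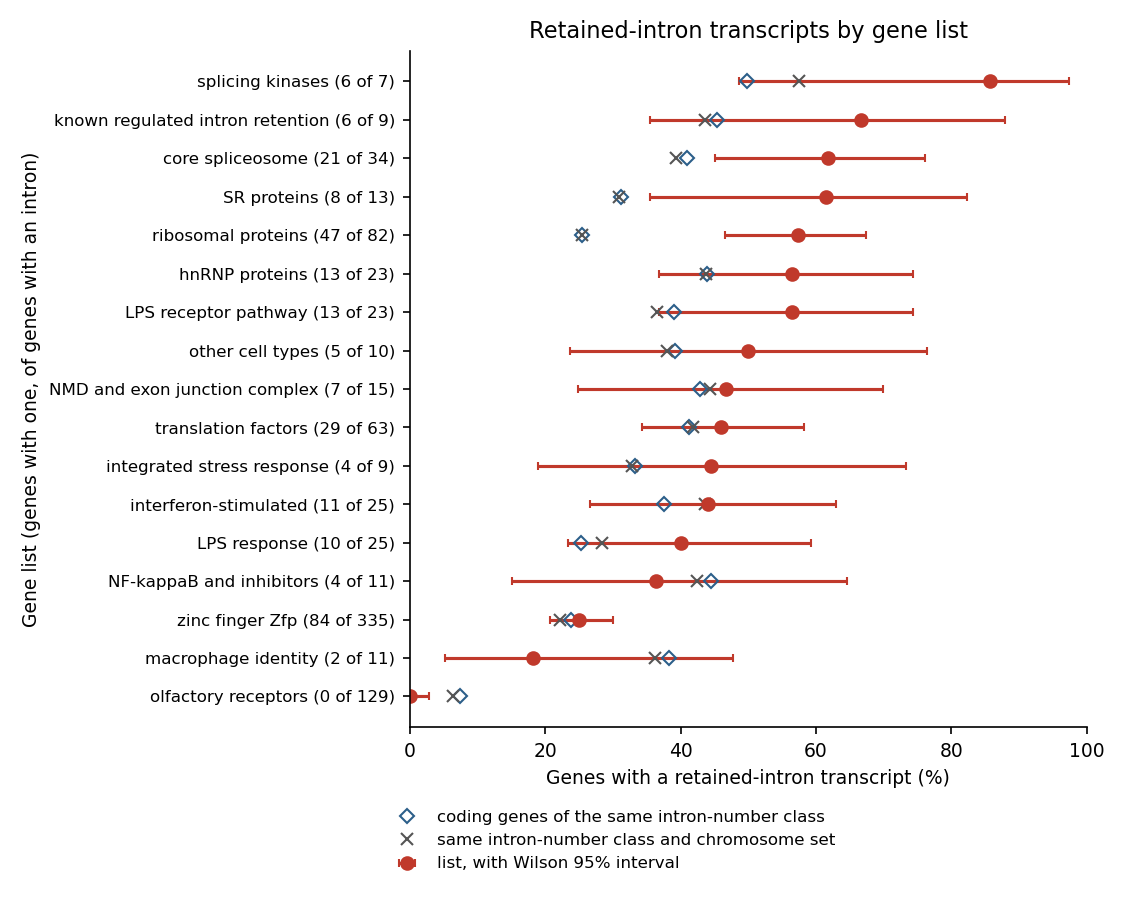
Share of genes with at least 1 retained-intron transcript (horizontal axis, %) for each gene list (vertical axis, with counts): circles with Wilson 95% intervals, beside the share over coding genes of the same intron-number class (diamonds) and of the same class and chromosome set (crosses). Ribosomal protein genes lie at 57.3% against 25.4%, and olfactory receptor genes at 0%.

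The plot of gene lists sets each list beside genes of like structure. Among ribosomal protein genes, members were found in 47 of 82 (57.3%, 46.5 to 67.5%), beside 25.4% at the same intron number and 27.7% at the same number of introns and of other transcripts. A whole intron was held in 32 of the 82 (39.0%), beside 9.56% and beside 14.5% of all coding genes. Rpl10 had 6 members, 5 of them holding, Rpl10a had 5 with 4 holding, and Rpl6 had 6 with 1 holding. Translation factor genes lay close to theirs, at 29 of 63 (46.0%) beside 41.3%. Zinc finger genes of the Zfp series had members in 84 of 335 (25.1%) beside 23.8%. Olfactory receptor genes had members in 0 of 129 with an intron, with a Wilson upper bound of 2.89%, beside 7.48%. At the same numbers of introns and of other transcripts, the share of like genes was 43.2% for known retention, 38.8% for SR proteins, 50.01% for the kinases, 39.3% for the core spliceosome, 20.4% for LPS-induced genes and 42.8% for NF-kappaB genes. It was 36.5% for macrophage identity, 29.7% for other cell types, 29% for stress response genes, 39.8% for translation factors, 25.5% for Zfp genes and 6.90% for olfactory receptors. For Zfp genes this turned the order, with the list at 25.1%. These lists were described and not tested as sets.

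Part of the introns in ribosomal protein and translation genes carry a small nucleolar RNA (snoRNA), a guide for RNA modification that is released from the spliced intron. Retained introns held a snoRNA gene in 34 cases (0.551%, 0.395 to 0.769%), against 0.241% (0.195 to 0.298%) of spliced introns. From 150 to under 500 bases, the shares were 1.17% (0.799 to 1.71%) and 0.373% (0.249 to 0.559%). The 33 snoRNAs lay in 21 host genes, 11 of which encode ribosomal proteins. Eif4a2 retained introns with 3 of them, Snord2, Snora81 and Gm26447. Hspa8, a chaperone gene, retained introns with 3 members of the Snord14 family. Nop56, whose protein is part of snoRNA particles, also had 3. Rpl13 retained an intron of 196 bases with Snord68 and another of 1089 bases with Mir7079 at its end.

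Genes that LPS induces had members in 10 of 25 (40%, 23.4 to 59.3%), beside 25.3% in the same intron-number classes. Whole introns were held in 8 of the 25 (32%), beside 9.83% in those classes and 14.5% of all coding genes. The chemokines Cxcl1, Cxcl2 and Cxcl10, which attract neutrophils or T cells, each had all 3 introns of the gene retained. In each a single-exon member held the 3 introns together, in 1871 bases for Cxcl1, 2066 for Cxcl2 and 2230 for Cxcl10. These models covered 99.8%, 100% and 99.3% of the genomic span of the reference transcript. Intron 1 was in phase 1 and introns 2 and 3 in phase 2 in each of the 3 genes. The first introns had 89, 92 and 538 bases in Cxcl1, Cxcl2 and Cxcl10. A coding transcript also held intron 3 of Cxcl2 and of Cxcl10. The single-exon members carry no support level, and with levels 1 and 2 alone 28% of the list had members, beside 27.01% of all coding genes with an intron. At these levels the share in the same intron-number classes was not computed, so the 28% cannot be set beside the 25.3%.

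Among the cytokines, Il1b had 1 member, which held intron 2 of 6 (532 bases, chr2:129369752-129370283, minus strand), after codon 15 of 269. Il12a had 4 members. Intron 5 of 7 (73 bases) was held by 3 of them and spliced by 1, and intron 6 (90 bases) was held by 2 and spliced by 2. Ccl2 held its last intron (325 bases) in 1 member, and Ccl5 had 1 member with 0 holding. Tnfaip3, an inhibitor of NF-kappaB signalling, had introns 5 and 7 held, and Lcn2, which encodes an iron-trapping protein, had intron 5 of 6 (130 bases) held by 2 members. Cd40 had 1 member with 0 holding.

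The receptor pathway of LPS had members in 13 of 23 genes (56.5%, 36.8 to 74.4%), beside 39.0% at the same intron number and 43.9% at the same numbers of introns and other transcripts. Whole introns were held in 6 of the 23 (26.1%), beside 17.3% and beside 14.5% of all coding genes. Irak1, a kinase next to the receptor adaptor, had 6 members, all of which held a whole intron, over 7 distinct introns among introns 1 to 5 of 14. Intron 1 (76 bases) was held by 2 and spliced by 2. Myd88, the adaptor itself, had introns 2 (389 bases) and 3 (160 bases) of 5 held by its 1 member. In Irf3, a transcription factor of the interferon response, both members held intron 5 of 7 (98 bases). Chuk, a kinase gene of the pathway, had 6 members with 0 holding, while its partner Ikbkb had 7 with 1 holding and Ikbke had 4 with 1 holding. Ly96, Ticam2, Irak3, Irak4, Traf3 and Ikbkg had 1 member each with 0 holding, and Tab2 had 2 with 1 holding.

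Interferon-stimulated genes had members in 11 of 25 (44%, 26.7 to 62.9%), beside 37.5% at the same intron number, 42.7% at the same numbers of introns and other transcripts, and 43.7% at the same intron number and chromosome set. Irf9, a transcription factor gene of the interferon response, had 3 members and introns 6 to 9 of 9 held. A further one held is no intron of the reference transcript. Ifi44 had 1 member with introns 2 and 3 held, and Zbp1 and Oas3 had 1 whole retained intron each. Oasl2 had 4 members and Adar 3, with 0 holding in both. Oas2, Oasl1 and Ifih1 had members with 0 holding. NF-kappaB genes had members in 4 of 11, beside 44.5% of like genes, namely Nfkb1, Relb, Bcl3 and Nfkbid, of which just Nfkbid had a whole retained intron (intron 6, 114 bases). Macrophage identity genes had members in 2 of 11, below the 38.3% of like genes but with an interval from 5.14 to 47.7% that includes it. These were Aif1, with intron 2 in the 5′ UTR (451 bases), and Mrc1, with its last intron, 29 of 29 (997 bases). Marker genes of other cell types had members in 5 of 10, beside 39.1%, and stress response genes in 4 of 9, beside 33.2%.

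The chromosome of a gene moved with these shares. On chromosomes 1, 3 and 5, members were found in 55.2%, 54.5% and 56.0% of coding genes with an intron. Over the other autosomes and X the share ran from 19.6% on chromosome 13 to 38.8% on chromosome 16, and on Y it was 2.61%. Grouped after these values were seen, chromosomes 1, 3 and 5 stood at 55.3% (1814 of 3282 genes) and the other assembled chromosomes at 29.7% (4785 of 16104). The median number of introns was 7 in both groups. The median number of other transcripts was 3 on chromosomes 1, 3 and 5 and 2 elsewhere, and the mean number of protein-coding transcripts was 2.85 and 2.34. The part of these in the gap was not tested. By intron number, the gap was present in each of the 4 classes of intron number compared. It was 30.6% against 16.4% at 2 to 4 introns, 57.1% against 31.1% at 5 to 9, 75.6% against 44.0% at 10 to 19, and 85.9% against 50.0% at 20 or more.

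**Figure D5:**
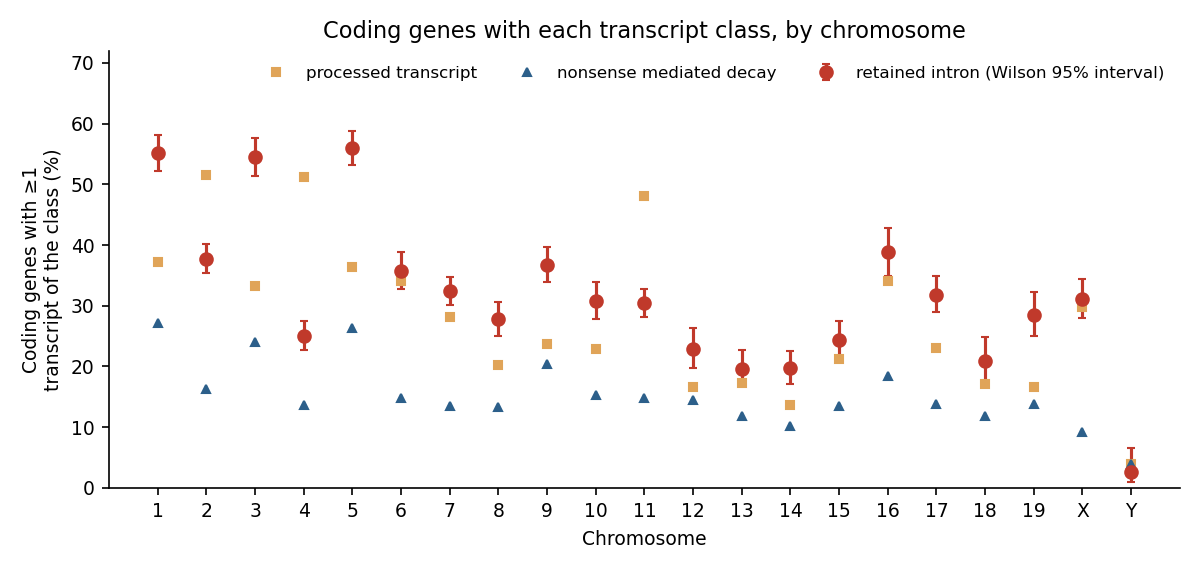
Share of coding genes with an intron (vertical axis, %) that have at least 1 retained-intron transcript (circles with Wilson 95% intervals), processed transcript (squares) or nonsense-mediated decay transcript (triangles), by chromosome (horizontal axis). Chromosomes 1, 3 and 5 lie at 55.2, 54.5 and 56.0% for retained-intron transcripts, above the other chromosomes.

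In the plot by chromosome, nonsense-mediated decay transcripts were also most frequent on chromosomes 1, 3 and 5, at 27.2%, 24.0% and 26.3% of genes, and at most at 20.5% on any other. Together these chromosomes stood at 25.96% for decay transcripts and the rest at 14.1%. Processed transcripts did not follow this order, at 35.7% and 30.2%, with their highest shares on chromosomes 2, 4 and 11. Members of chromosomes 1, 3 and 5 held a whole intron in 25.6% of cases, against 31.8% elsewhere. Counted by gene the order was reversed, with a whole retained intron in 22.1% of coding genes with an intron there and 13.0% elsewhere. Members with no entry for the support level made up 21.1% of those on chromosome 5 and 8.03% on chromosome 6, against 3.70% over all. A further 5.69% of all members had the level entered as NA and are not in these shares.

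Lists differ in how many of their genes lie on these 3 chromosomes. Of the 11 interferon-stimulated genes with members, 7 were among the 9 genes of that list on chromosomes 1, 3 and 5, and 4 were among the other 16 (25%). Among the LPS-induced genes, 4 of 8 on those chromosomes and 6 of 17 elsewhere (35.3%) had members. The whole list stood at 40%, beside 25.3% of genes of like intron number and 28.5% at the same intron number and chromosome set. All 3 Cxcl genes described above lie on chromosome 5. Ribosomal protein genes off these chromosomes had members in 37 of 70 (52.9%). For the whole list of 82, genes of like intron number and chromosome set had members in 25.4%. For the splicing kinases, the share of like genes rose from 49.8% to 57.5% when the chromosome was taken into account, and 3 of the 4 kinase genes off these chromosomes had members.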

How the data were processed

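The only file analysed was the gene annotation deposited by the authors, whose values are positions of other kind than a measurement: the start and end of exons, coding sequences and transcripts on build mm10, counted from 1, with 0 lines carrying a score and 0 columns of values per sample. TopHat2 2.1.1 and build mm10 appear per the submitters' processing notes. The sources used here do not state how the annotation was assembled. The 1544831 lines were read with Python 3.11.15, pandas 2.3.3, numpy 2.4.6 and scipy 1.17.1, and drawn with matplotlib 3.10.9. Introns are the gaps between the exons of a transcript. The reference transcript of a gene is the protein-coding transcript with the longest CDS. An intron was in the CDS when coding bases lay on both sides. Intron sequences came from RefSeq windows of assembly GRCm38.p6, 250 bases before to 50 after a gene start, and from RefSeq hairpins. Shares carry Wilson 95% intervals, which cover counting error only; gene models do not replicate a condition, so tests were left out.

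The code was tested on simulated data and recovered 300 of 300 planted introns and ends. Named genes are the 10 with the most members and the 10 with the most distinct retained introns, the 5 longest and 5 shortest introns, the 3 transcripts with the most, and genes with members on lists of known retention, SR proteins, splicing kinases, LPS response, interferon-stimulated genes, LPS receptor pathway, NF-kappaB and macrophage identity. Further lists hold hnRNP, core spliceosome, decay, ribosomal protein, translation, stress response, Zfp and olfactory receptor genes and markers of other cell types. Oga, Acod1 and Mx2 were not found under those symbols. Members and lists were chosen with earlier results of these data known. Further genes named were picked with their values in view. The planned comparisons between libraries were not run, because no values per library were analysed here. Values of some genes on these lists are not reported here.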

Additional observations from a re-analysis of the deposited data

How the results depend on the processing

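Of 130 alternatives, 81 left the value within its interval or a count within 1.5 times, and 49 moved it. Some of the 81 could not have moved it. Every member has havana (15428) or ensembl_havana (44) as its source, so limiting members to these 2 sources repeated each value. Counting all genes found on a list also repeated the value where every gene of the list has an intron. The 81 are therefore no measure of how stable the values are. Genes with members fell from 33.9% to 29.97% over all coding genes, 27.01% with support level 1 or 2, and 29.61% off chromosomes 1, 3 and 5, where unplaced and patch sequences are counted too. Members holding a whole intron went from 30.1% to 31.8% with introns of any other transcript, 28.8% with reference introns and 10.6% when exon ends had to equal the outer ends of the flanking exons. That strict match left 1724 distinct introns. The median length was 251 bases with reference introns and 252.5 with the strict match. The retained intron was shorter in 47.5% with the shortest of each and 45.2% with spliced introns no longer than the holding exon.

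For first, internal and last introns, the shares held were 5.44%, 6.07% and 5.37% over all introns of the same genes, 0.643%, 4.78% and 1.24% with the strict match, and 31.7%, 25.95% and 20.4% under 500 bases. With at least 5 introns, first and last stood at 8.44% and 11.0%, and with 1 retained intron per gene, internal and last at 7.41% and 4.11%. That last setting kept the retained intron nearest the 5′ end of each reference transcript. By construction it left the share of first introns at 10.4% and could only lower the internal and last shares. For the 5′ UTR, CDS and 3′ UTR, the shares were 8.19%, 13.5% and 18.8%. They became 3.67%, 6.05% and 7.28% over all introns of these genes, 0.543%, 4.31% and 0% with the strict match, and 24.8%, 25.8% and 30.6% under 500 bases. The CDS share was 13.0% with at least 5 introns and 7.47% with 1 retained intron per gene, where the 3′ UTR share was 7.77%. The CDS and 3′ UTR shares, too, could only fall when 1 retained intron was kept per gene.

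Counting genes with a whole retained intron, the lists stood at 34.8% (hnRNP), 32.4% (core spliceosome), 13.3% (decay), 24% (interferon-stimulated), 26.1% (LPS receptor), 9.09% (NF-kappaB), 20% (other cell types), 11.1% (stress response), 39.0% (ribosomal), 23.8% (translation) and 7.76% (Zfp). In the same order, genes of like intron number stood at 19.8%, 18.1%, 19.2%, 16.6%, 17.3%, 19.8%, 17.0%, 14.4%, 9.56%, 18.2% and 9.08%. Over all coding genes with an intron the share was 14.5%. Counting genes with members, interferon-stimulated genes were at 25% off chromosomes 1, 3 and 5, and Zfp genes at 19.1% with support level 1 or 2. The alternatives on introns under 500 bases, on spliced introns no longer than the exon, on ends in coding exons, on chromosomes and, for lists, on support level were added after seeing the data. The causes of these shifts were not tested.

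No paired analysis was possible because the annotation holds no library values. The planned count models, and settings that leave out a library, were therefore not run. Read depth plays no part in these shares, which count gene models. They are bounded by the annotation, in which most members cover a small stretch of their gene.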
